A study of Drosophila melanogaster with 36 samples.

Results

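The females of the reverted strains REV1 and REV2 of *Drosophila melanogaster* were compared with the females of the strain SIM1. All 3 strains have white eyes and carry the ultraconserved region under study in its intact form, so the comparison measures how far strains differ that share eye colour and gene order. The members are the 9 female arrays of these strains, 6 of REV (3 of REV1 and 3 of REV2) against 3 of SIM1, out of 36 arrays in the series. Each array, of the one-colour NimbleGen type, measured total RNA from 50 virgin flies aged 5 to 7 days. The arrays of a strain came from separate samples lettered A to C. The other arrays are those of INV1, INV2 and REC females, which have red eyes, and of the males of all 6 strains.

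The strains come from one lineage. The strain REC holds 2 transposable elements on one chromosome, *P{RS5}5-HA-1995* at one end of the later inversion and *P{RS3}CB-0236-3* at the other. Each element carries a mini-*white* reporter, which colours the eye, with an exon of it between FRT sites, the short sequences at which the yeast recombinase FLP joins DNA. Recombination within an element removes that exon. Heat-shock expression of FLP in REC descendants gave flies with the inversion (INV1 and INV2), in which the mini-*white* reporter is rebuilt and the region is disrupted, and flies from the same vials without it (SIM1), in which the elements were trimmed and eye colour was lost. REV1 and REV2 were obtained by reverting the inversion with a further round of FLP. Which INV strain gave which REV strain is not given in the sources used here, and strains are paired below by number alone. REV and SIM1 flies therefore carry the same trimmed elements in a *w* mutant background, in homozygous condition, and REV has passed through the inversion and 1 more heat shock. SIM1 is represented by 1 strain and REV by 2 strains, so arrays repeat the measurement within a strain, and passage through the inversion cannot be told apart from the identity of the strains.

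The file gives, for each array, 1 intensity for each of 16637 transcripts, under FlyBase transcript identifiers and with no gene names. A gene table of the current annotation matched 44 identifiers (0.264%), and the other transcripts are given by identifier. No gene of vision, eye pigment, yolk, chorion, the ultraconserved region or the other lists drawn up for this comparison was among the 44, nor was *white*, so the sex, tissue and eye colour of the samples could not be checked against marker genes. Intensities were placed on the log2 scale, on which a difference of 1 is a factor of 2. In whole flies, fewer cells of a type and less RNA per cell cannot be told apart.

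REV females differed from SIM1 females at 481 of 16637 transcripts (2.89%) at an adjusted p under 0.01 in limma, of which 154 were higher (0.926%) and 327 lower (1.97%) in REV. The differences were mostly small. Their median size was 0.47 on the log2 scale, with 0.40 for the higher and 0.52 for the lower transcripts, against a median standard error of 0.078 over all transcripts. Only 27 of the called transcripts differed by more than 2-fold, and 24 of these 27 were lower in REV. Between 0.5 and 1 on the log2 scale lay 31 of the higher and 155 of the lower transcripts. The median difference over all transcripts was 0.01. The count rested on single arrays and on the fit. It was between 30 and 952 when 1 of the 9 arrays was left out. It was 35 when only these 9 arrays were fitted and 96 in one fit of all 36 arrays. After quantile normalization it was 341 (82 higher and 259 lower in REV). A one-way test like that of the paper called 0. For SIM against REV1 and REV2 in females, the paper itself reports 1 transcript at a false discovery rate of 0.01.

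**Figure D1:**
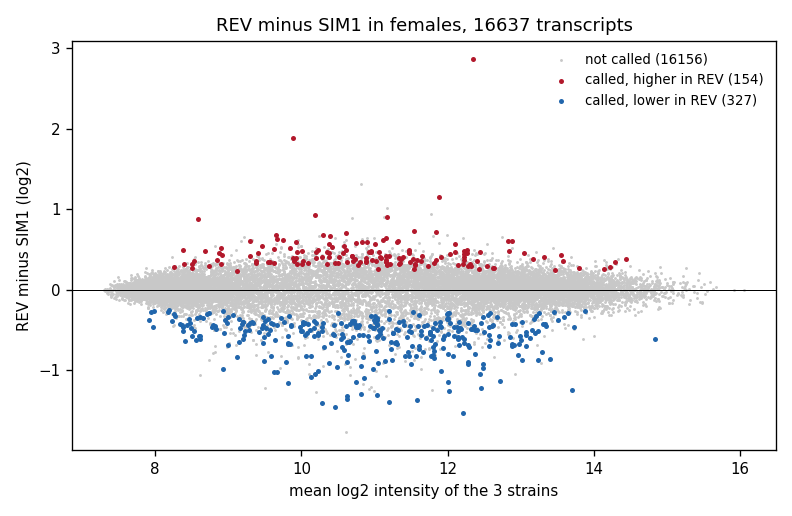
REV minus SIM1 in females (vertical axis, log2) against the mean log2 intensity of REV1, REV2 and SIM1 (horizontal axis), 1 point per transcript. The 154 transcripts called higher in REV are red, the 327 called lower are blue and the others are grey, and the lower calls reach further from 0 than the higher calls except at 2 transcripts that are higher by 1.88 and 2.86.

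The arrays of the groups stood apart at most of these transcripts. All 6 REV arrays were above all 3 SIM1 arrays at 147 of the 154 higher transcripts and below them at 303 of the 327 lower transcripts. Over all transcripts, REV lay wholly above SIM1 at 6.03% and wholly below at 5.29%. The transcripts were called on these same arrays, so the separation largely follows from the calls and is no further evidence for them. The calls were most frequent at middle intensities. With the transcripts ranked by mean intensity and split into 4 classes of equal size, from dimmest to brightest, 0.457%, 4.06%, 5.51% and 1.54% were called.

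The largest difference was at FBtr0076720, which was higher in REV. Its log2 intensity was 13.29, 13.66 and 13.63 in REV1 females and 12.996, 13.19 and 13.05 in REV2 females, against 10.02, 10.43 and 10.88 in SIM1 females. The REV mean was 7.26-fold above the SIM1 mean (2.86 ± 0.16 on the log2 scale, SE, adjusted p = 5.96e-08). SIM1 was the strain that stood apart at this transcript. INV1 arrays lay at 13.04 to 13.23, INV2 arrays at 11.79 to 12.36 and REC arrays at 12.49 to 12.91, and SIM1 minus REC was -2.19 (adjusted p = 4.95e-06). REV was also above REC, by 0.67 (adjusted p = 0.00733).

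The transcript FBtr0085150 was the next higher one. It measured 9.75, 10.62 and 10.41 in REV1 and 10.63, 10.66 and 11.03 in REV2, against 8.44, 8.70 and 8.76 in SIM1, a 3.68-fold difference (1.88 ± 0.18, SE, adjusted p = 4.18e-05). Here too SIM1 lay below REC (SIM1 minus REC -2.03, adjusted p = 6.14e-05), while REV minus REC was -0.15 (adjusted p = 0.610). INV2 arrays, at 9.62, 9.06 and 8.94, came nearest to SIM1, and REV2 exceeded INV2 by 1.57 (adjusted p = 0.000806).

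FBtr0071989 was lower in REV. It measured 10.91, 9.90 and 9.97 in REV1 and 9.22, 10.20 and 9.68 in REV2, against 11.45, 11.65 and 11.18 in SIM1 (-1.45 ± 0.22, SE, 2.73-fold, adjusted p = 0.00145). REC, at 11.41 to 11.79, stood with SIM1 (SIM1 minus REC -0.11, adjusted p = 0.904), and REV was below REC (-1.56, adjusted p = 0.000250). INV1 arrays lay at 11.08 to 11.35 and INV2 arrays at 9.98 to 10.58. This call was lost without SIM1 A (adjusted p = 0.0158) or SIM1 B (adjusted p = 0.0146).

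At FBtr0071991, REC and INV1 again lay with SIM1. It measured 10.46, 10.09 and 10.12 in REV1 and 8.88, 9.58 and 9.80 in REV2, against 11.18, 11.56 and 10.92 in SIM1 (-1.40 ± 0.17, SE, adjusted p = 0.000328). REC arrays lay at 11.32 to 11.58, and each REV strain lay below the INV strain of its number (REV1 minus INV1 -1.06, adjusted p = 0.00299, and REV2 minus INV2 -1.38, adjusted p = 0.00153). FBtr0081240, which fell by 1.36 (± 0.18, SE, adjusted p = 0.000771), was lower by nearly the same amount in REV1 (-1.33) and in REV2 (-1.39). Its call did not hold without SIM1 A (adjusted p = 0.0110).

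The lowest difference among the called transcripts was at FBtr0076196, at -1.53 ± 0.24 (SE, adjusted p = 0.00145). REV1 arrays measured 12.60, 11.96 and 11.56 and REV2 arrays 11.05, 11.66 and 11.35, against 13.55, 13.55 and 12.58 in SIM1. REV1 A lay just above SIM1 C, and without SIM1 A or SIM1 B the adjusted p was 0.0197 or 0.0151.

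**Figure D2:**
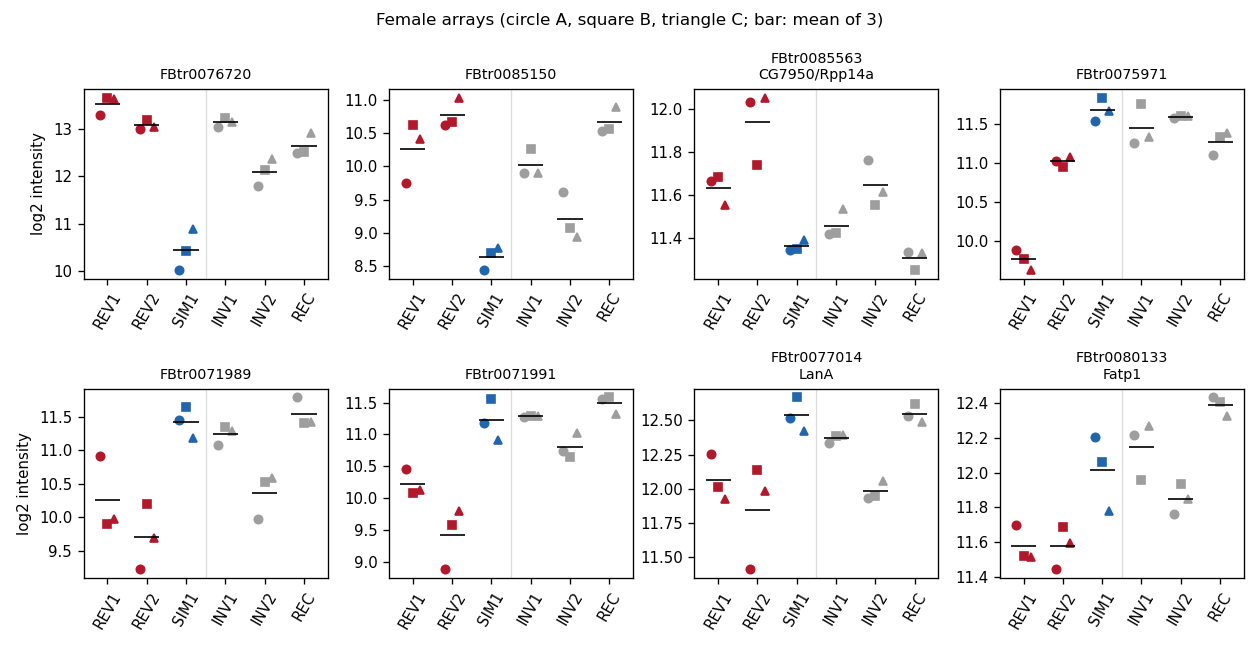
Log2 intensity (vertical axis) of 8 transcripts on the 18 female arrays, by strain (horizontal axis; REV red, SIM1 blue, red-eyed strains grey), with 1 symbol per array and a bar at the mean of 3. SIM1 is lowest at FBtr0076720 and FBtr0085150, REV1 lies 1.26 below REV2 at FBtr0075971, and INV2 lies close to REV at FBtr0071989 and *LanA*.

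Of the 44 transcripts with a gene name, 5 were called (11.4%, against 2.89% of all transcripts), 2 higher and 3 lower in REV. With so few names, and names that follow from how the table lists transcripts shared by genes, the share is not a measure of the genome. A transcript matched to more than 1 gene (28 of the 44) is one that the table lists under each of them, and its signal cannot be split between them. Whether such an RNA holds the reading frames of several proteins was not examined.

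The transcript shared by *CG7950* and *Rpp14a* was higher in REV. The *Rpp14a* product is related to a protein subunit of ribonuclease P, the enzyme that trims the leading end of transfer RNAs. It measured 11.67, 11.68 and 11.56 in REV1 and 12.03, 11.74 and 12.05 in REV2, against 11.35, 11.35 and 11.39 in SIM1 (0.43 ± 0.07, SE, adjusted p = 0.00206). The SIM1 arrays lay close together, and the INV1 and INV2 means lay between those of SIM1 and REV2. The call was lost without SIM1 A (adjusted p = 0.0197) or SIM1 B (adjusted p = 0.0148).

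*LanA*, which encodes the alpha chain of a laminin of the basement membrane, was lower in REV. Its values were 12.25, 12.01 and 11.92 in REV1 and 11.41, 12.13 and 11.98 in REV2, against 12.52, 12.67 and 12.42 in SIM1 (-0.58 ± 0.12, SE, adjusted p = 0.00666). No REV array reached the lowest SIM1 array, and INV2, at 11.94 to 12.06, had REV-like values while INV1, at 12.33 to 12.39, lay between the groups. Without REV1 B, REV1 C, SIM1 A or SIM1 B the adjusted p was 0.0164, 0.0157, 0.0408 or 0.0453.

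*Fatp1*, a fatty acid transport protein, was also lower in REV. REV1 arrays measured 11.70, 11.52 and 11.52 and REV2 arrays 11.44, 11.69 and 11.59, against 12.21, 12.06 and 11.78 in SIM1 (-0.44 ± 0.09, SE, adjusted p = 0.00818). Both REV strains were lower by 0.44. REC was the highest strain at 12.33 to 12.43, and REV minus REC was -0.81 (adjusted p = 3.33e-05). The call passed without REV1 A, REV2 B or SIM1 C, and was lost without each of the other 6 arrays: REV1 B (adjusted p = 0.0206), REV1 C (0.0188), REV2 A (0.0179), REV2 C (0.0148), SIM1 A (0.0797) or SIM1 B (0.0453).

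The transcript shared by *CG10570* and *CG42502* was lower by 0.54 (± 0.10, SE, adjusted p = 0.00558), at 13.32, 13.15 and 12.87 in REV1 and 12.70, 13.20 and 12.89 in REV2, against 13.53, 13.64 and 13.50 in SIM1. Its adjusted p was between 0.0103 and 0.0120 without REV1 B, REV1 C, REV2 A or REV2 C, 0.0346 without SIM1 A and 0.0369 without SIM1 B. *kis*, whose product kismet is a chromatin remodelling factor, was called at the smallest difference of the 5, 0.28 ± 0.06 (SE, adjusted p = 0.00921). REV1 arrays measured 14.23, 14.16 and 14.30 and REV2 arrays 14.41, 14.37 and 14.38, against 13.94, 13.96 and 14.19 in SIM1. SIM1 C overlapped REV1 B, and the adjusted p was 0.0137 to 0.0222 without any 1 of REV1 A, REV1 B, REV1 C, REV2 A or REV2 C, 0.0813 without SIM1 A and 0.0625 without SIM1 B. *kis* and the uncalled genes below were named after their values had been seen.

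The other 39 named transcripts were not called, with differences between -0.68 and 0.27. For 38 of the 39 the 95% interval left no room for a 2-fold difference. The exception was the transcript of *CG17325* and *CG42305*, at 11.25, 11.04 and 10.46 in REV1 and 10.53, 11.27 and 11.28 in REV2, against 11.61, 11.91 and 11.44 in SIM1 (-0.68, interval -1.10 to -0.26, adjusted p = 0.0380). Its REV and SIM1 arrays did not overlap. *Wdr24* and *mio*, subunits of the GATOR complex that regulates the TOR growth pathway, measured 0.22 (interval 0.03 to 0.41, adjusted p = 0.128) and 0.15 (interval -0.01 to 0.30, adjusted p = 0.216). The transcript of *moi*, which encodes a telomere-capping protein, and *Tgs1*, which encodes an enzyme that modifies RNA caps, measured 0.24 (interval 0.06 to 0.43, adjusted p = 0.0855). Without SIM1 C that transcript was called, at 0.38 (adjusted p = 0.00508). *Uba1*, which encodes the ubiquitin-activating enzyme, measured 0.16 (interval 0.02 to 0.30, adjusted p = 0.140) and *alpha-Spec*, a spectrin of the membrane skeleton, -0.16 (adjusted p = 0.189).

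REV1 and REV2 were then set against SIM1 one at a time. REV2 differed from SIM1 at 530 transcripts (3.19%), 181 higher (1.09%) and 349 lower (2.1%), whereas REV1 differed at 25 (0.15%), 4 higher (0.024%) and 21 lower (0.126%). At the 154 higher transcripts the median difference was 0.36 for REV1 and 0.44 for REV2, and at the 327 lower transcripts it was -0.47 for REV1 and -0.59 for REV2. These transcripts were chosen by the mean of both REV strains, and the comparisons share the SIM1 arrays. The direct comparison of REV2 with REV1 called 1 transcript (0.00601%), with 1653 at an unadjusted p under 0.05. The count for REV1 was 335 without SIM1 C, 63 without REV1 A, 52 without REV2 B, 40 without REV2 A, and between 5 and 11 without SIM1 A, SIM1 B, REV1 B or REV1 C. The count for REV2 was 911 without SIM1 C, 1131 without REV2 B and between 84 and 198 without SIM1 A, SIM1 B, REV2 A or REV2 C.

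The transcript called between the REV strains was FBtr0075971. It measured 11.03, 10.96 and 11.08 in REV2 and 9.88, 9.77 and 9.62 in REV1, against 11.54, 11.84 and 11.67 in SIM1. REV2 exceeded REV1 by 1.26 ± 0.12 (SE, adjusted p = 0.000119). Both were below SIM1, REV1 by 1.92 (adjusted p = 1.12e-07) and REV2 by 0.66 (adjusted p = 0.00281). REV1 was also below INV1 (REV1 minus INV1 -1.70, adjusted p = 3.06e-07).

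The position of each array was measured at transcripts called without it. For each of the 9 arrays in turn, the calls were made on the others, and the left-out array was placed on a scale from 0 at the SIM1 mean to 1 at the REV mean of the remaining arrays. REV1 A, B and C lay at median positions 0.63, 0.93 and 0.85, and REV2 A, B and C at 1.19, 0.71 and 1.01. SIM1 A lay at -0.05 over 30 transcripts and SIM1 B at 0.13 over 104, near the mean of the other SIM1 arrays. That mean includes SIM1 C, so the positions of the SIM1 arrays rest on unlike sets of transcripts. SIM1 C lay at 0.63, and at 62.8% of the 952 transcripts called without it this SIM1 array was nearer the REV mean than the mean of SIM1 A and B.

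**Figure D3:**
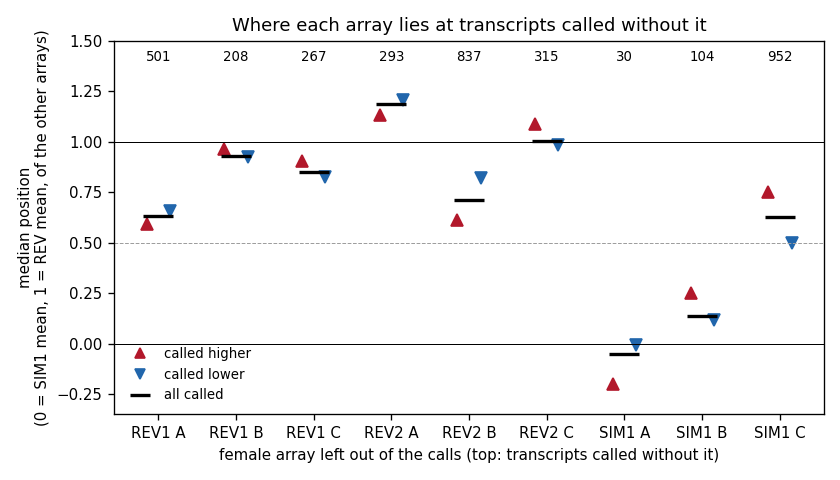
Median position of each female array (horizontal axis) at the transcripts called without it, where 0 is the SIM1 mean and 1 the REV mean of the other arrays (vertical axis, no unit). The bar is the median over all called transcripts, triangles are those called higher (red) and lower (blue), and the number at the top is the count called without the array; SIM1 C lies at 0.63, level with REV1 A.

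The number of calls was smallest without SIM1 A and largest without SIM1 C. It was 30 without SIM1 A, 104 without SIM1 B and 952 without SIM1 C. Leaving out one REV array gave 501 (REV1 A), 208 (REV1 B), 267 (REV1 C), 293 (REV2 A), 837 (REV2 B) or 315 (REV2 C). Lower transcripts outnumbered higher ones in each of these fits except without SIM1 C, where 478 were higher and 474 lower. As deviations from the mean of the 18 female arrays over all transcripts, SIM1 A and B had a correlation of 0.65 across transcripts, whereas SIM1 C had 0.09 with SIM1 A and -0.01 with SIM1 B. REV2 B was likewise little correlated with its own strain, at 0.09 with REV2 A and 0.06 with REV2 C, with 0.28 to 0.45 with the REV1 arrays, 0.06 with SIM1 A and 0.15 with SIM1 B. A difference of the SIM1 C sample and an exchanged label cannot be told apart from these values. With SIM1 C and REV2 B, the arrays given the lowest weights among the 9 (0.376 and 0.359), both left out, 1642 transcripts were called, 902 higher and 740 lower. The named transcripts FBtr0076720, FBtr0085150, FBtr0071991 and FBtr0075971 kept their calls whichever of the 9 arrays was left out.

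The red-eyed strains show where REV and SIM1 lie among their relatives. Their arrays did not enter the REV and SIM1 means, but they did enter the shared estimate of spread by which transcripts were called. On the same scale, with 0 at SIM1 and 1 at REV, REC females lay at a median of 0.10 over the 154 higher and -0.11 over the 327 lower transcripts. INV1 females lay at 0.38 and 0.33, and INV2 females at 0.82 and 0.82. Over all transcripts, with REV above and below SIM1, the medians were 0.09 and 0.22 for REC, 0.34 and 0.49 for INV1 and 0.88 and 0.89 for INV2. The median size of REV minus SIM1 over all transcripts was only 0.09. Positions over all transcripts therefore mostly divide by small differences and cannot be set directly against those at the called transcripts. REC was nearer to REV than to SIM1 at 23 of the 154 higher and 17 of the 327 lower transcripts, INV1 at 60 and 106, and INV2 at 125 (81.2%) and 245 (74.9%). Over all transcripts INV2 was also the strain most often nearer to REV, at 63.5% of those with REV above SIM1 and 62.8% of those with REV below. Both shares were below those of INV2 at the called transcripts. INV1 was nearer to REV at 3940 of 8951 and 3825 of 7684 transcripts, and REC at 35.7% and 41.7%.

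**Figure D4:**
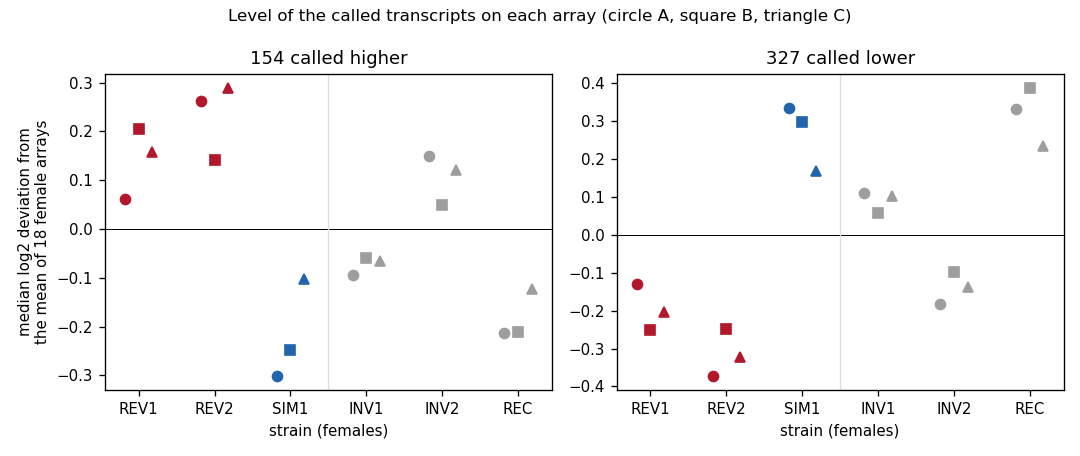
Median log2 deviation from the mean of the 18 female arrays (vertical axis) over the 154 transcripts called higher (left) and the 327 called lower (right) in REV, 1 symbol per array, by strain (horizontal axis; REV red, SIM1 blue, red-eyed strains grey). REC lies near SIM1 and INV2 near REV, with INV1 between them, and SIM1 C is the SIM1 array closest to REV in both panels.

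The comparisons along the lineage called unequal numbers. REV minus REC, with 6 REV arrays, called 1628 transcripts (9.79%). With 3 arrays on each side, REV1 minus REC called 652 (3.92%), REV2 minus REC 1314 (7.9%) and SIM1 minus REC 46 (0.276%). When 1 array was left out these counts ran from 180 to 734, from 489 to 1806 and from 20 to 35. The comparisons share the REC arrays. REV1 differed from INV1 at 881 transcripts (5.3%), or 131 to 1154 without 1 array, and REV2 from INV2 at 67 (0.403%), or 33 to 71 without 1 array. All these comparisons set white-eyed against red-eyed strains, and those with INV also set the intact against the disrupted region. Divergence along the lineage cannot be told apart from these. Of the 327 lower transcripts, the REV mean fell outside the range of the REC, INV1 and INV2 means and the SIM1 mean inside it at 168, and the reverse held at 49. For the 154 higher transcripts the numbers were 51 and 38. Over all transcripts they were 3345 and 3527.

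The same comparison was made in males. REV males differed from SIM1 males at 2 transcripts (0.012%), with 1110 at an unadjusted p under 0.05. With the replicate letter as a block 1 was called. A count depends on the spread as well as on the size of the differences, and what set the lower count in males was not tested. *Fatp1* differed by -0.36 (SE 0.23) in males and -0.44 (SE 0.09) in females. *kis* differed by 0.26 (SE 0.18) in males and 0.28 (SE 0.06) in females. The other called transcripts with a gene name differed less in males. *LanA* differed by -0.17 (SE 0.20) in males and -0.58 (SE 0.12) in females. The transcript of *CG10570* and *CG42502* differed by -0.19 (SE 0.10) and -0.54 (SE 0.10), and that of *CG7950* and *Rpp14a* by -0.02 (SE 0.12) and 0.43 (SE 0.07). At FBtr0071989 the SE was alike, 0.20 in males and 0.22 in females. FBtr0076714 was higher, at 11.10, 11.70 and 11.42 in REV1 males and 11.71, 11.71 and 11.86 in REV2 males, against 10.35, 10.36 and 10.62 in SIM1 males (1.14, adjusted p = 0.00116). FBtr0081835 was lower, at 9.18, 9.07 and 9.52 in REV1 and 9.43, 9.40 and 8.61 in REV2, against 10.51, 10.47 and 10.48 in SIM1 (-1.28, adjusted p = 0.00422). Neither was called in females, where the differences were -0.43 (adjusted p = 0.120) and -0.10 (adjusted p = 0.684). In males the call of FBtr0076714 was lost without SIM1 A (adjusted p = 0.0241) or SIM1 B (adjusted p = 0.0251), and that of FBtr0081835 without REV1 A, REV1 B or any 1 SIM1 array (adjusted p = 0.0177 to 0.0559).

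The difference between REV and SIM1 was itself compared between the sexes, and 8 transcripts (0.0481%) were called, with 2454 at an unadjusted p under 0.05. With the replicate letter as a block 4 were called. FBtr0076720, the transcript with the largest difference in females, was among them. In males it measured 10.65, 10.47 and 10.25 in REV1 and 11.04, 10.63 and 10.86 in REV2, against 10.33, 10.03 and 9.52 in SIM1, and the female difference exceeded the male one by 2.17 (adjusted p = 2.55e-05). FBtr0071989, lower in REV females, had a male difference of 0.44 (adjusted p = 0.523), and the difference between the sexes was -1.89 (adjusted p = 0.00652).

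The transcripts called in females were only partly shifted the same way in males, who share no array with the females. The 327 lower transcripts had a lower REV mean in males at 268 (82.0%), and the 154 higher transcripts a higher one at 68 (44.2%), against 51.7% with the same sign over all transcripts. The median male difference was -0.21 at the lower and -0.03 at the higher transcripts. The values moved without male SIM1 C. Its deviations were negatively correlated with those of SIM1 A (-0.53) and SIM1 B (-0.33), and without it the shares were 67.6% and 51.9%, against 48.8% over all transcripts, and the medians -0.07 and 0.00.

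The called transcripts also differed in how they were expressed between the sexes, which was measured in REC, INV1 and INV2, so that no REV or SIM1 array was used. The higher transcripts were mostly female-biased. Their median male minus female difference was -1.24, and 122 of the 154 (79.2%) were lower in males, 87 of them (56.5%) by at least 2-fold. The lower transcripts had a median of 0.39, with 97 of the 327 (29.7%) lower in males. Over all transcripts the median was -0.09, with 53.7% lower in males and 30.3% lower by at least 2-fold. The sexes have different intensity distributions and the medians move with the scaling. In the values as deposited the medians were -0.73 for the higher, 0.98 for the lower and 0.39 for all transcripts, and after quantile normalization -1.42, 0.67 and -0.19. The order of the sets was the same under the 3 scalings.

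The share of transcripts called lower varied with the sex difference. Among the 4663 transcripts with a sex difference between 0 and 1, 4.20% were called lower and 0.472% higher in REV. Between 1 and 2, 2.38% were called lower, and between -1 and 0, 1.59%. Among the 1316 between -3 and -2, 0.380% were called lower and 2.13% higher. Among the 431 transcripts below -3, 3.02% were called lower and 1.62% higher. The male minus female difference was -4.85 at FBtr0076196, -3.54 at FBtr0081240 and -3.43 at FBtr0071991, which lie there, and -1.66 at FBtr0075971 and -0.68 at FBtr0071989, which do not. With the values as deposited, 4.95% were called lower both below -3 and between 1 and 2, and with quantile normalization 3.55% below -3 and 6.85% between 1 and 2. Strongly male-biased transcripts were rarely called, with 0.175% lower and 0.263% higher among the 1141 above 3. Such transcripts can be dim in females. FBtr0084138 had red-eyed strain means of 7.65 to 7.77 in females and 12.37 to 12.82 in males. In the dimmest class of the female arrays 0.457% were called, and a low share above 3 was not separated from low intensity.

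**Figure D5:**
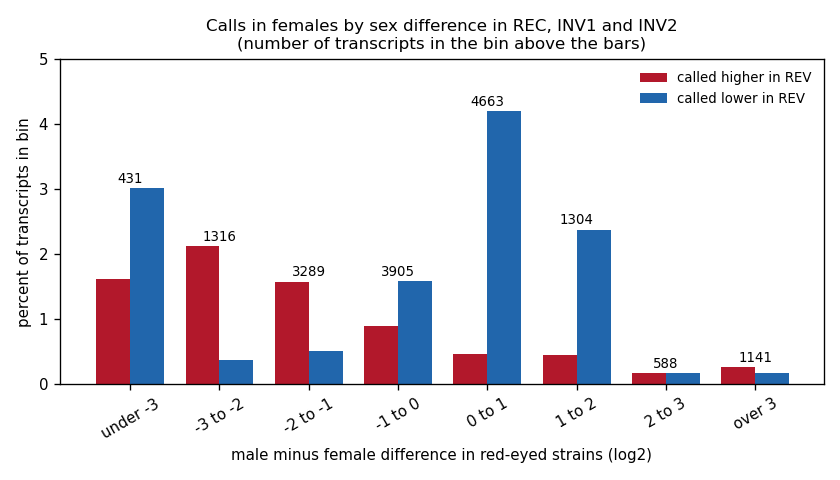
Percent of transcripts called higher (red) and lower (blue) in REV females (vertical axis) by their male minus female log2 difference in REC, INV1 and INV2 (horizontal axis), with the number of transcripts in each bin above the bars. Higher calls reach 2.13% between -3 and -2 and lower calls 4.20% between 0 and 1, with a further 3.02% called lower below -3.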

How the data were processed

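The array service labelled, hybridized and scanned the samples. By the methods, the authors log-transformed the signals, took the median over the probes of a transcript and applied limma's scale method between arrays. How background was corrected is not given in the sources used here. The deposited values are linear fluorescence intensities between 135 and 54214, whose distribution was nearly the same on all 18 female arrays (at most 0.972% apart at equal rank). The array annotation is release 5.7, and names came from a RefSeq table of Release 6 plus ISO1 MT.

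The log2 intensities of the 36 arrays were brought to one scale (normalizeBetweenArrays). The 18 female arrays were fitted together in limma 3.58.1 (R 4.3.3) with one mean per strain, REV being the mean of the REV1 and REV2 means. Males were fitted alone, and the difference between the sexes over all arrays. A transcript was called where its p, adjusted by Benjamini-Hochberg over 16637 transcripts, was under 0.01. No filter was used. The last transcript called had a size of 0.29 and the first not called 0.28. Scripts were tested on simulated data. Figures were drawn in Python 3.11.15 with matplotlib 3.10.9.

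The transcripts named were those called in REV minus SIM1 with arrays that do not overlap, by size, at most 12 per direction with a gene name and 2 without, and at most 2 without a name per direction in other comparisons. The members, lists and rules were chosen with earlier results of these data known. None of 12 lists of genes matched an identifier. Alternatives were other normalizations, a filter on dim transcripts, an intensity trend with robust fitting, weighted arrays, a block for the replicate letter, other sets of arrays in the fit, the methods' one-way comparison, a threshold of 0.05, and leaving out each array. The comparisons of REV1 and REV2 with REC, leaving out 1 array in the comparisons with REC and INV, leaving out REV2 B with SIM1 C, the males without male SIM1 C and the scalings of the sex difference were added after seeing the data. With 1 colour and no control probes used, the number of arrays limits the precision.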

Additional observations from a re-analysis of the deposited data

Results flagged for a closer look

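The log2 difference between REV and SIM1 differed between the sexes (female minus male) by a called amount at 6 of the transcripts named: 2.17 at FBtr0076720, -1.89 at FBtr0071989 (adjusted p = 0.00652), -1.44 at FBtr0071991 (adjusted p = 0.00526), -1.19 at FBtr0075971 (adjusted p = 2.95e-05), -1.57 at FBtr0076714 (adjusted p = 0.000404) and 1.19 at FBtr0081835 (adjusted p = 0.00786). FBtr0071991 was dim in males, with strain means of 7.73 to 7.95, against 9.42 to 11.49 in females. Its male REV minus SIM1 difference was 0.04, so its value above is mostly the female difference. Whether a strain difference could be measured at that male intensity was not tested. The REV strains differed from each other in females at FBtr0075971, by 1.26 (REV2 minus REV1).

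One array of the 6 REV arrays of a sex stood far from the other 5 in 4 of 46 groups examined. The critical value used is set for about 1 in 20 groups of 6 values from a single normal distribution. Each group here joins REV1 and REV2, and the same arrays recur across groups, so that rate cannot be applied. The gap to the nearest array, as a share of the range, was above the critical value of 0.625 for the highest male array at FBtr0085150 (0.652, REV2 A), at FBtr0071991 (0.825, REV1 A) and at FBtr0081240 (0.819, REV1 A), and for the lowest female array at FBtr0076714 (0.656, REV2 C).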

How the results depend on the processing

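None of the 23 transcripts followed by name changed direction in the settings run. Of the 12 called, 12 lost the call by the methods' one-way comparison, 8 in a fit of the 9 arrays alone, 4 in one fit of all 36 arrays and 2 after quantile normalization. The 481 calls of REV minus SIM1 in females became 1641 with array weights (875 higher, 766 lower), 1656 at an adjusted p under 0.05 (803 and 853), 35 in a fit of the 9 arrays alone, 96 in one fit of all 36 arrays and 0 by the methods' one-way comparison, which had 3132 transcripts at an unadjusted p under 0.05. Leaving out 1 array gave 30 to 952, and REV2 B with SIM1 C 1642. The 25 calls of REV1 minus SIM1 became 16 after quantile normalization, 51 without the dimmest 25%, 38 with an intensity trend and robust fitting, 937 with array weights, 2 with the 9 arrays alone, 6 with all 36, 0 by the one-way comparison (2123 at an unadjusted p under 0.05), 400 at an adjusted p under 0.05 and 5 to 335 without 1 array. The 530 calls of REV2 minus SIM1 became 1090 with array weights, 62 with the 9 arrays alone, 152 with all 36, 0 by the one-way comparison (2313), 1808 at an adjusted p under 0.05 and 84 to 1131 without 1 array. REV2 minus REV1 called 4 after quantile normalization or with a trend and robust fitting, 3 with array weights, 0 by the one-way comparison (950), 13 at an adjusted p under 0.05 and 1 to 4 without 1 array. Leaving out 1 array, chosen after seeing the data for the comparisons that follow, moved REV minus REC to 511 to 1978, SIM1 minus REC to 20 to 35, REV1 minus REC to 180 to 734, REV2 minus REC to 489 to 1806, REV1 minus INV1 to 131 to 1154 and REV2 minus INV2 to 33 to 71. In males 4 transcripts were called at an adjusted p under 0.05 and 0 to 2 without 1 array. The sexes differed at 4 transcripts after quantile normalization, 24 at an adjusted p under 0.05 and 3 to 16 without 1 array. The cause of these changes was not tested.

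Same-lettered arrays did not deviate together in every pair. Of 9 pairs each, the correlation of deviations from the group means was over 0.1 in 2 between strains in females (-0.32 to 0.37), 2 between strains in males (-0.27 to 0.38) and 1 between the females and males of a strain (-0.24 to 0.16). With the replicate letter as a block 1 transcript was called in males, 4 differed between the sexes, and *Fatp1* had an adjusted p of 0.0114. The share of the 481 transcripts with the same sign in males was 69.9%, 75.7% after quantile normalization and 62.6% without male SIM1 C. The share of calls at which SIM1 C lay nearer REV was 65.1% after quantile normalization.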
